A study of Mus musculus with 18 samples.

Results

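The genes described here were p53 and the inhibitors of cyclin-dependent kinases (CDKs): Trp53, its feedback genes Mdm2 and Ccng1, the Cip/Kip genes Cdkn1a, Cdkn1b and Cdkn1c, and the INK4 genes Cdkn2a, Cdkn2b, Cdkn2c and Cdkn2d. They were chosen by symbol, and all 10 were found among the 23420 gene symbols of the count table. RNA was sequenced from the brains of Camk2a-Cre-Rpl22HA mice, in which Cre under the Camk2a promoter tags Rpl22, a protein of the large ribosomal subunit, with HA, so that polysomes of excitatory neurons can be pulled down. Input is total RNA of the tissue and IP is the immunoprecipitated polysomal RNA. Control mice had no tumor, tumor mice had glioma cells implanted in the cortex, and the AZD group had the same tumor and the mTOR inhibitor AZD8055. Every mouse carried the tag and the Cre, so no group shows the pull-down without them. The sources used here give neither the genotype of the implanted cells, nor the dose and timing of AZD8055, nor the age of the mice. The 3 conditions and both fractions made 6 groups of 3 libraries, 18 in all, with 13561511 to 34178417 counts per library. Whether replicate numbers stand for separate mice is not stated in the labels, so p-values reflect only the spread among libraries of a group, some of which may be technical.

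p53, the product of Trp53, is a transcription factor that is kept low by the ubiquitin ligase Mdm2 and rises in protein, more than in mRNA, after DNA damage or oncogenic signalling. It switches on Cdkn1a (p21), Ccng1 (cyclin G1) and Mdm2 itself. The Cip/Kip proteins p21, p27 (Cdkn1b) and p57 (Cdkn1c) bind cyclin-CDK complexes, while the INK4 proteins p16Ink4a (Cdkn2a), p15 (Cdkn2b), p18 (Cdkn2c) and p19Ink4d (Cdkn2d) bind Cdk4 and Cdk6 and block their pairing with D cyclins. Cdkn2a also encodes p19Arf from another first exon, a protein that binds Mdm2 and frees p53. Cdkn2a and Cdkn2b lie side by side, and their loss is common in human high-grade glioma.

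The 250 bases before a start site are shown for Cdkn1a, Mdm2, Ccng1 and Cdkn2a. Sequences are those of RefSeq on GRCm38.p6, read 5′ to 3′ on the gene's own strand. Windows were found for 9 of the 10 genes, 12 in all. Capitals mark the p53 decamer, the consensus element of which a full response element holds a pair, or the E2F octamer, searched as TTTCGCGC, TTTGGCGC, TTTCCCGC and TTTGCCGC on both strands. Cdkn1a, Mdm2 and Ccng1 are shown as the classical p53 targets, and both Cdkn2a windows because gene counts pool the transcripts from both starts. The genes lie at chr17:29090979-29100722 (Cdkn1a), chr10:117688875-117710758 (Mdm2), chr11:40748552-40755309 (Ccng1) and chr4:89274473-89294619 (Cdkn2a). The start sites of the Ccng1 and p16Ink4a windows lie inside these spans. The Ccng1 window therefore overlaps its gene's span in part, and the p16Ink4a window lies wholly within it.
Cdkn1a, chr17:29090729-29090978, plus strand: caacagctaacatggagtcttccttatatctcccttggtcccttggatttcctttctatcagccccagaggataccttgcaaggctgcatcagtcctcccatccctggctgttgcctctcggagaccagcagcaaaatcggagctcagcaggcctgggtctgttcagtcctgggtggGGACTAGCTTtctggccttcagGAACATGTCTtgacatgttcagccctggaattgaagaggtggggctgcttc
Mdm2, chr10:117710759-117711008, minus strand: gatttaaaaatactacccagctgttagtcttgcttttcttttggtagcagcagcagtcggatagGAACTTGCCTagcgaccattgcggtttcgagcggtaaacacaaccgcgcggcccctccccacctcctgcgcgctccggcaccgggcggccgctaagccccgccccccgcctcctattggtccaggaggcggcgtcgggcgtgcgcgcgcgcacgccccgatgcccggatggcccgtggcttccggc
Ccng1, chr11:40755287-40755536, minus strand: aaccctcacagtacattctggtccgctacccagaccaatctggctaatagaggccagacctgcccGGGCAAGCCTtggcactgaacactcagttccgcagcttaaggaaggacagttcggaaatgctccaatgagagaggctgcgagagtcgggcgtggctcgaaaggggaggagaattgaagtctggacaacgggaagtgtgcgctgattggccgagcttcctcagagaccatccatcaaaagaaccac
Cdkn2a, p19Arf start, chr4:89294620-89294869, minus strand: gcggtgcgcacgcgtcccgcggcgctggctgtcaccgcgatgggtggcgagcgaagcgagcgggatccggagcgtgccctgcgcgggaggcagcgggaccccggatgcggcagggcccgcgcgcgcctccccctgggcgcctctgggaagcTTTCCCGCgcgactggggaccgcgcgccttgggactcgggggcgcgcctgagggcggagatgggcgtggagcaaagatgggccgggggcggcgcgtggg
Cdkn2a, p16Ink4a start, chr4:89282193-89282442, minus strand: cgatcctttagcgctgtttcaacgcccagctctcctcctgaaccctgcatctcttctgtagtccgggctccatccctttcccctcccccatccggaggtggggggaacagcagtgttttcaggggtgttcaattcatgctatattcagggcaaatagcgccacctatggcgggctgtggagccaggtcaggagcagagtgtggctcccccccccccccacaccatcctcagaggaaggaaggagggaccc
The p53 decamer was in a window of 5 genes (Trp53, Mdm2, Ccng1, Cdkn1a and Cdkn2d), and 8.20% of 27025 genes with a window had it. The Cdkn1a window shown held 2 decamers, 64 and 42 bases before the start. Cdkn1a had another window, at chr17:29093519-29093768, which held 0. The E2F octamer was in a window of 1 gene, the p19Arf window of Cdkn2a, 92 bases before the start, and in 2.16% of all genes. These are matches of letters and not measured binding, and a window without a match says only that the letters are not in those bases.

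Levels are counts per 1000000 counts (CPM) after TMM scaling of the libraries, without correction for gene length, so levels of different genes are not compared. Differences are log2 values from edgeR ± SE, and a gene is said to have risen or fallen where edgeR's quasi-likelihood F test gave an adjusted p (Benjamini-Hochberg over all genes tested) under 0.05. Camk2a was at 1053 ± 184 CPM (SD, n = 3) in control input and 1710 ± 133 in control IP, and at 430 ± 253 in tumor input and 720 ± 150 in tumor IP. The 20 markers of the glioma lineage (oligodendrocyte precursor genes such as Pdgfra and Olig2) summed to 954 to 1284 CPM in control libraries of either fraction. With tumor they summed to 9144 to 11282 CPM in input and 7532 to 8435 in IP, and with AZD to 4704 to 6095 in input and 1043 to 1237 in IP, with none at 0. The lowest tumor input library was thus above the highest tumor IP library by little. The AZD IP sums lay in the range of the control sums, though 7 of the 20 markers were higher and 5 lower in AZD IP than in control IP. Tumor replicate 1 stood apart: the chi-square per degree of freedom against the other tumor replicates was 69.2 and 72.1 in input and 39.7 and 50.2 in IP, against 14.9 and 13.9 between replicates 2 and 3. Replicate 1 was also the most distant in AZD (23.2 and 27.4 against 10.8 in input, 26.2 and 31.1 against 10.2 in IP) and in control IP (24.4 and 16.1 against 8.51). By the library codes in the labels, control and tumor input formed a set, control and tumor IP another, and all AZD libraries one more. Differences between AZD and the other conditions, and between IP and input in control and tumor, therefore cannot be told apart from differences between sets.

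**Figure D1:**
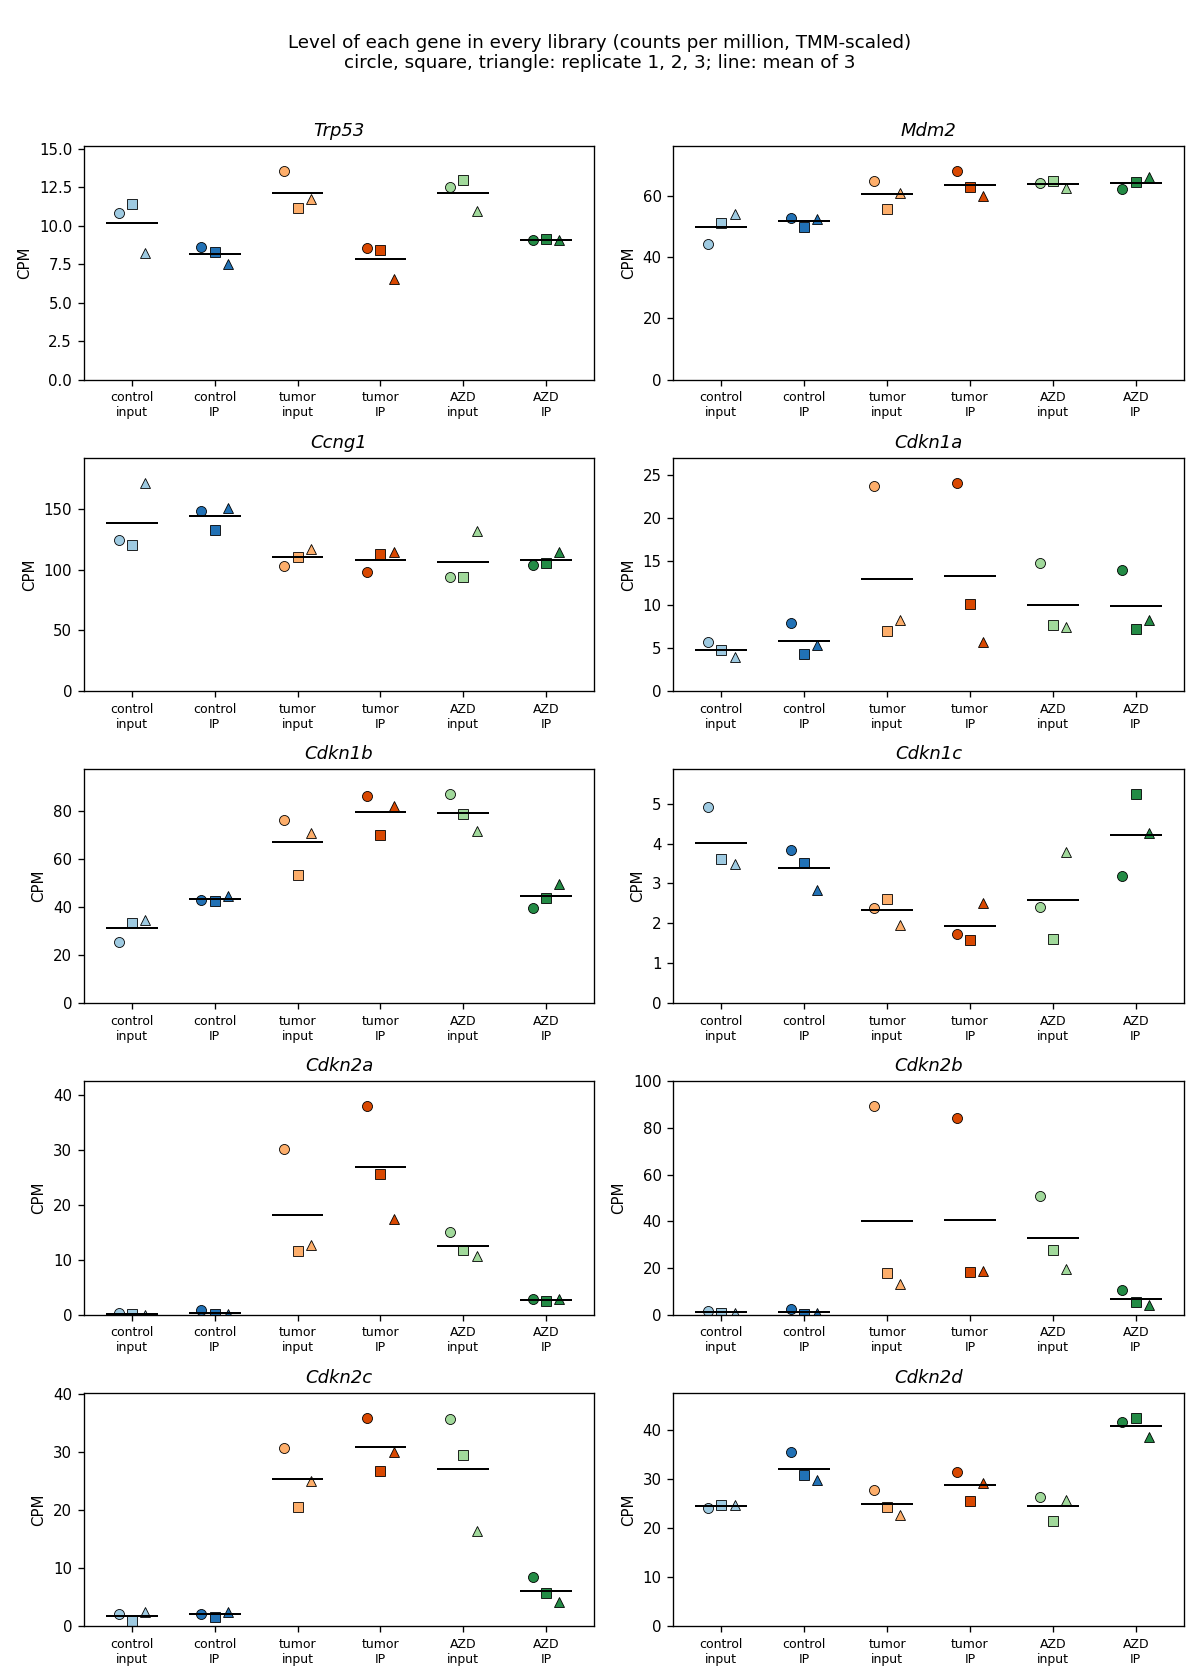
Level of each gene in every library, in TMM-scaled CPM on a linear axis from 0, with the 6 groups along the x axis, symbols for replicates 1 to 3 and a line at the mean of 3. Cdkn2a, Cdkn2b and Cdkn2c are near 0 in control, high in tumor input, tumor IP and AZD input, and low again in AZD IP. Over all libraries Trp53 runs from 6.52 to 13.6 CPM, Mdm2 from 44.2 to 68.1 and Ccng1 from 93.6 to 172.

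In tumor IP against control IP, 5 of the 10 genes rose (Mdm2, Cdkn1b, Cdkn2a, Cdkn2b and Cdkn2c) and 2 fell (Ccng1 and Cdkn1c). Of all genes tested 47% were called in that comparison, 26.1% higher and 20.9% lower. In tumor input against control input, 6 rose (the same 5 and Cdkn1a) and 0 fell, where 48.1% of all genes were called, 24.5% higher and 23.6% lower. The median log2 difference of the 10 genes was 0.61 in IP and 0.68 in input, against 0.02 and -0.01 over all genes tested. The tumor and control libraries did not overlap for 7 of the 10 genes in IP and 8 in input, as for 60.6% and 59.9% of all genes. Cdkn2a passed the filter on low counts only through libraries with tumor, and so did Cdkn2b in input. Those differences from control are given as a description with no p. The medians and the counts without overlap above still include these genes and are likewise only a description. Both medians would be lower without them. Without Cdkn2a, 4 genes rose in IP. Without Cdkn2a and Cdkn2b, those that rose in input were Mdm2, Cdkn1a, Cdkn1b and Cdkn2c. Cdkn2a was left out of the comparison of control IP with input, where 9 of the 10 were tested. In these bulk samples, more cells of a type and more RNA per cell cannot be told apart.

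Trp53 mRNA did not pass the test between tumor and control in either fraction. Its CPM in replicates 1, 2 and 3 was 10.8, 11.4 and 8.23 in control input, 13.6, 11.1 and 11.7 in tumor input and 12.5, 12.9 and 10.96 in AZD input. In IP it was 8.65, 8.27 and 7.53 for control mice, 8.53, 8.39 and 6.52 for tumor mice, and 9.08, 9.11 and 9.04 under AZD. Within a fraction, control and tumor libraries overlapped; the AZD IP libraries lay just above those of control and tumor IP. The difference between tumor and control was -0.04 ± 0.14 in IP (95% interval -0.32 to 0.24, adjusted p = 0.842) and 0.24 ± 0.17 in input (interval -0.09 to 0.57, adjusted p = 0.254). That between AZD and tumor in IP was 0.19 ± 0.14 (interval -0.09 to 0.47, adjusted p = 0.264). Intervals here and below come from the SE of the fit by a normal approximation. They ignore the few degrees of freedom of the F test, so they are narrower than true 95% intervals. The sign in IP was not settled, since scaling by library totals alone gave 0.054.

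Mdm2 and Ccng1, both targets of p53, moved in opposite directions with tumor. In IP, Mdm2 was at 52.8, 49.9 and 52.4 CPM for control, 68.1, 63.0 and 60.1 for tumor and 62.2, 64.7 and 66.2 for AZD, so that every tumor and AZD library lay above every control library. It rose by 0.33 ± 0.08 in tumor IP (adjusted p = 0.00683) and by 0.32 ± 0.08 in AZD IP against control IP (adjusted p = 0.0123), comparisons that share the control libraries. Its input means were 49.7 ± 5.02 CPM for control, 60.6 ± 4.58 for tumor and 63.8 ± 1.19 for AZD (SD, n = 3 each). The difference between tumor and control input was 0.27 ± 0.10 (adjusted p = 0.0485), and this call was lost with no filter on low counts (0.0694) and without tumor replicate 1 (0.129), tumor replicate 3 (0.0814), control replicate 1 (0.152) or control replicate 2 (0.0911). Between AZD and control input the difference was 0.38 ± 0.10 (adjusted p = 0.0166, or 0.0574 without control replicate 1 and 0.0502 without AZD replicate 1). The AZD IP call became 0.0552 without control IP replicate 2.

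Ccng1, whose product recruits a phosphatase subunit that acts on Mdm2, was in IP at 148, 133 and 151 CPM for control, 97.7, 113 and 114 for tumor, and 104, 105 and 115 for AZD. Each control IP library was above all 6 others of the fraction. Ccng1 fell by 0.38 on the log2 scale in tumor IP (SE 0.09, adjusted p = 0.00640) and by 0.41 in AZD IP against control IP (SE 0.09, adjusted p = 0.00645). The input libraries were at 124, 120 and 172 CPM for control, 103, 111 and 117 for tumor and 93.6, 93.6 and 132 for AZD, and replicate 3 was the highest of each group. The differences from control input were -0.34 ± 0.16 for tumor (adjusted p = 0.109) and -0.36 ± 0.16 for AZD (adjusted p = 0.106, and 0.0274 without AZD replicate 3 and 0.0411 with all 18 libraries in a fit).

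Among the Cip/Kip genes, Cdkn1a (p21) rose with tumor in input, and its level was highest in tumor replicate 1. Its CPM in replicates 1, 2 and 3 was 5.74, 4.72 and 3.99 in control input and 23.7, 6.96 and 8.18 in tumor input. In IP it was 7.90, 4.25 and 5.29 for control and 24.1, 10.1 and 5.71 for tumor. Under AZD it was 14.8, 7.65 and 7.46 in input and 13.99, 7.16 and 8.27 in IP. Replicate 1 was the highest in all 6 groups, input libraries of tumor lay above those of control without overlap, and in IP tumor replicate 3 lay inside the control range.

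Cdkn1a was higher in tumor input than control input by 1.42 ± 0.46 (adjusted p = 0.0257), a value that became 0.63 (adjusted p = 0.116) without tumor replicate 1, and whose call was also lost without control replicate 1 (0.0511), 2 (0.0717) or 3 (0.0890). In IP the difference was 1.19 ± 0.47 (adjusted p = 0.0556), and 0.44 (adjusted p = 0.332) without tumor replicate 1. The latter comparison passed under other settings, with 0.0458 for scaling by library totals, 0.0322 with no filter and 0.0101 without tumor replicate 3. AZD IP against tumor IP gave -0.48 ± 0.46 (adjusted p = 0.396) and 0.27 without tumor replicate 1, and AZD input against control input gave 1.07 ± 0.46 (adjusted p = 0.0909, and 0.0393 with DESeq2).

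Cdkn1b (p27) rose with tumor in both fractions and fell with AZD in IP, while in input AZD and tumor did not pass the test. Its input level was 25.4, 33.3 and 34.7 CPM for control, 76.4, 53.3 and 70.8 for tumor and 86.8, 78.8 and 71.4 for AZD. In IP it was at 43.0, 42.5 and 44.5 for control, 86.2, 69.9 and 81.9 for tumor, and 39.6, 43.7 and 49.7 for AZD. Tumor libraries lay above all control libraries of their fraction, and AZD IP libraries lay around the level of control IP, below every tumor IP library. The rise with tumor was 1.09 ± 0.16 in input (2.13-fold, adjusted p = 0.000464) and 0.90 ± 0.11 in IP (1.86-fold, adjusted p = 8.88e-05). AZD IP differed from tumor IP by -0.86 ± 0.11 (1.82-fold lower, adjusted p = 6.75e-05). AZD input was above control input by 1.36 ± 0.16 (adjusted p = 0.000175) and differed from tumor input by 0.27, with an interval of -0.03 to 0.58.

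Cdkn1c (p57), an imprinted gene, had few counts. Its CPM in IP was 3.84, 3.52 and 2.83 for control, 1.74, 1.59 and 2.50 for tumor and 3.19, 5.24 and 4.26 for AZD. Tumor IP lay below both other IP groups without overlap. It fell by 0.76 in tumor IP against control IP (SE 0.26, adjusted p = 0.0321), a call lost without control IP replicate 1 (0.0999) or 2 (0.0782) or tumor IP replicate 1 (0.0789) or 2 (0.103). It was 1.10 ± 0.26 higher in AZD IP than in tumor IP (adjusted p = 0.00399). Its input means were 4.01 ± 0.785 CPM for control, 2.32 ± 0.329 for tumor and 2.60 ± 1.11 for AZD, and the difference between tumor and control was -0.79 ± 0.31 (adjusted p = 0.0580). It passed with DESeq2 (0.0457) and with all 18 libraries in a fit (0.0331).

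Of the INK4 genes, Cdkn2a, Cdkn2b and Cdkn2c were near 0 in control and higher with tumor in both fractions, while Cdkn2d did not pass. Cdkn2a had 5, 2 and 0 counts in the control input libraries and 25, 1 and 1 in control IP, against 779, 281 and 233 in tumor input and 676, 562 and 535 in tumor IP. In CPM these were 30.1, 11.6 and 12.7 in tumor input and 37.9, 25.5 and 17.4 in tumor IP, with at most 0.319 in control input and 0.806 in control IP. Every tumor library was far above every control library. The fitted difference was 6.36 in IP and 6.94 in input. Its size rests on a few control counts: without control IP replicate 1, which held 25 of the 27 counts, it was 9.22, without control input replicate 1 it was 8.14, and without tumor input replicate 1 it was 6.35. Counts per gene do not separate the p16Ink4a from the p19Arf transcripts.

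With AZD, Cdkn2a stayed high in input and was low in IP. Its CPM under AZD was 15.1, 11.7 and 10.6 for input and 2.78, 2.43 and 2.79 for IP. The AZD input libraries overlapped those of tumor input, and the AZD IP libraries lay between control IP and tumor IP, touching neither. AZD IP differed from tumor IP by -3.36 ± 0.48 (10.3-fold lower, adjusted p = 0.000157) and, as a description, from control IP by 3.00 (5.86 without control IP replicate 1). In input, AZD differed from control by 6.43 (7.63 without control replicate 1) and from tumor by -0.52, with an interval of -1.25 to 0.22.

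Cdkn2b (p15), the neighbour of Cdkn2a at chr4:89306289-89311032, followed the same order of groups with a wider spread. Its CPM in input was 1.53, 0.833 and 0.553 for control, 89.3, 17.8 and 13.2 for tumor and 51.0, 27.6 and 19.4 for AZD. In IP it was 2.19, 0.411 and 0.688 for control, 84.3, 18.1 and 18.7 for tumor and 10.6, 5.42 and 3.91 for AZD. Tumor replicate 1 was several times the other tumor replicates in both fractions, yet the lowest tumor library was still above every control library. The rise with tumor was 5.14 ± 0.77 in IP (adjusted p = 0.000428) and, as a description, 5.37 in input. Without tumor replicate 1 it was 3.98 in input and 4.02 in IP, and without control IP replicate 1 it was 6.17 in IP. AZD IP differed from tumor IP by -2.69 ± 0.66 (adjusted p = 0.00517), or by -1.55 without tumor replicate 1 (adjusted p = 0.0147). As a description, AZD input was above control input by 5.10. AZD IP was above control IP by 2.46 ± 0.78 (adjusted p = 0.0335), and by 3.49 without control IP replicate 1. That call was lost without control IP replicate 2 (0.111) or 3 (0.108) or AZD IP replicate 1 (0.102) or 2 (0.0613).

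Cdkn2c (p18) varied less between tumor replicates than Cdkn2a and Cdkn2b, relative to its mean. Its input level was 2.10, 0.944 and 2.46 CPM for control, 30.7, 20.5 and 24.97 for tumor and 35.6, 29.4 and 16.4 for AZD. In IP it was 2.10, 1.65 and 2.46 CPM for control, 35.9, 26.6 and 30.04 for tumor and 8.51, 5.72 and 4.15 for AZD. Tumor and AZD input overlapped, and the 3 IP groups formed separate levels with AZD in the middle. The rise with tumor was 3.91 ± 0.26 in IP (15.0-fold, adjusted p = 1.28e-06) and 3.79 ± 0.37 in input (13.8-fold, adjusted p = 3.14e-05). AZD IP differed from tumor IP by -2.40 ± 0.24 (5.27-fold lower, adjusted p = 1.47e-05) and from control IP by 1.51 ± 0.26 (adjusted p = 0.00161), and AZD input from control input by 3.91 ± 0.37 (adjusted p = 4.34e-05).

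Cdkn2d (p19Ink4d), the INK4 gene that neurons keep expressing, was highest in AZD IP. Its CPM in IP was 35.5, 30.7 and 29.8 for control, 31.5, 25.5 and 29.2 for tumor and 41.6, 42.4 and 38.5 for AZD, so that the AZD IP libraries were above all other IP libraries. Its input means were 24.4 ± 0.386 CPM for control, 24.9 ± 2.64 for tumor and 24.5 ± 2.64 for AZD. Tumor IP differed from control IP by -0.13 ± 0.11 (adjusted p = 0.349). AZD IP was above tumor IP by 0.48 ± 0.11 (adjusted p = 0.00296) and above control IP by 0.35 ± 0.11 (adjusted p = 0.0279). The last call was lost with scaling by library totals (0.0570) and without control IP replicate 2 (0.0991) or 3 (0.0995) or AZD IP replicate 1 (0.0561) or 2 (0.0959).

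Set against the markers, the 25 proliferation genes (Mki67, Top2a and others) summed to 78.0 to 106 CPM in control libraries, 1233 to 1348 in tumor input and 1094 to 1180 in tumor IP. They summed to 1637, 710 and 578 CPM in AZD input and to 400, 195 and 192 in AZD IP. The 20 excitatory neuron markers summed to 5348 to 7089 CPM for control, 2133 to 3918 for tumor, and with AZD to 2778 to 3564 in input and 6440 to 7336 in IP. No gene of these lists was at 0 in any group. Against control IP, 22 of the 25 proliferation genes and 7 of the 20 glioma-lineage markers were higher in AZD IP, and 5 of the latter lower. The part of glioma, dividing or neuronal cells in the levels of the 10 genes was not tested.

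In the comparisons of AZD with tumor, 2 of the 10 genes rose in IP (Cdkn1c and Cdkn2d) and 4 fell (Cdkn1b, Cdkn2a, Cdkn2b and Cdkn2c), where 58.7% of all genes were called, 25.1% higher and 33.5% lower. Libraries did not overlap for 7 of the 10, as for 63.4% of all genes. In input 0 of the 10 were called by edgeR, 0 by DESeq2 and 0 at an unadjusted p under 0.05, where 17.1% of all genes were called (7.89% higher, 9.17% lower), and 0 of the 10 had no overlap, against 34.4% of all genes. Against control and with Cdkn2a included, 5 of the 10 were higher and 1 lower in AZD IP, with 33.3% of all genes called (16% higher, 17.4% lower), and 7 had no overlap, against 52.1% of all genes. In AZD input 5 were higher and 0 lower with Cdkn2a and Cdkn2b included, where 36.8% of all genes were called (20.7% higher, 16% lower). There 6 had no overlap, against 57.2%. Comparisons with tumor and with control share the AZD libraries. In AZD IP against tumor IP, 20 of 20 glioma-lineage markers, 25 of 25 proliferation genes and 15 of 15 astrocyte markers were lower. So were 15 of 16 microglia and macrophage markers, with 0 higher. Of the 20 excitatory neuron markers 17 were higher and 0 lower. In input 18 of 20 glioma-lineage markers were lower, and of 15 astrocyte markers 4 were higher and 1 lower. What these cells contributed was not tested.

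**Figure D2:**
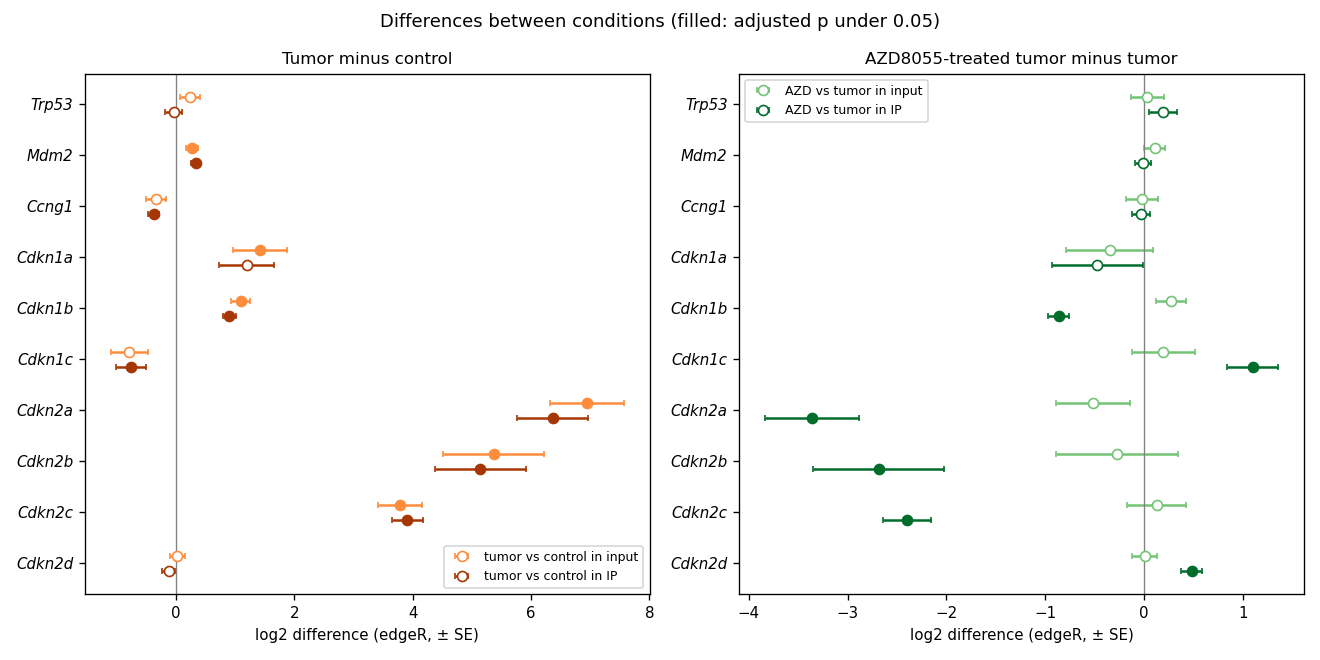
Log2 difference of each gene between conditions, edgeR estimate ± SE on the x axis and genes on the y axis, for tumor minus control (left) and AZD8055-treated tumor minus tumor (right), each in input and IP, with filled points at an adjusted p under 0.05. The INK4 genes Cdkn2a, Cdkn2b and Cdkn2c lie at 3.79 to 6.94 on the left in both fractions. The values of Cdkn2a there, and that of Cdkn2b in input, are a description. On the right these INK4 genes lie at -3.36 to -2.40 in IP, with open points in input.

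The comparison of IP with input asks which transcripts were relatively richer on tagged polysomes. In control, Cdkn1b rose by 0.46 ± 0.11 (adjusted p = 0.00568) and Cdkn2d by 0.38 ± 0.09 (adjusted p = 0.00742) in IP. These were 2 of the 9 genes tested, where 36.5% of all genes were called, 17.7% higher and 18.8% lower, and the 2 whose libraries did not overlap, where 49.4% of all genes did not. Trp53 differed by -0.34 ± 0.15 (adjusted p = 0.0886, but 0.0409 with the replicate number as a block and 0.0411 with scaling by library totals), lower in IP in each same-numbered pair.

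In tumor, 0 of the 10 genes were called between IP and input by the fit without pairing. There 5.09% of all genes were called, 2.11% higher and 2.98% lower. Libraries did not overlap for 1 of the 10, against 27.6% of all genes. Of the 10, 1 gene passed an unadjusted p of 0.05, and DESeq2 called 1 (Trp53, 0.0242). Trp53 differed by -0.63 ± 0.17 (adjusted p = 0.0837), Cdkn1b by 0.25 ± 0.16 (0.416), Cdkn2a by 0.57 ± 0.44 (0.514), Cdkn2c by 0.29 ± 0.19 (0.436) and Cdkn2d by 0.21 ± 0.13 (0.428). With the replicate number as a block, which pairs input with IP, 4 were called: Trp53 at -0.63 (adjusted p = 0.000364), Cdkn1b at 0.26 (0.0148), Cdkn2a at 0.63 (0.000231) and Cdkn2c at 0.29 (0.0171). Genes called overall went from 776 to 5433 with that block. Within pairs, the log2 ratio of IP to input CPM (0.5 added to both) of Cdkn2a was 0.33, 1.10 and 0.44 in tumor, above 0 in all 3.

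With AZD, 1 of the 10 genes was higher in IP than in input and 5 were lower, where 61.5% of all genes were called, 29% higher and 32.5% lower. Libraries did not overlap for 6 of the 10, against 68% of all genes. All AZD libraries belonged to the same set. Cdkn2a was lower in IP by a log2 difference of -2.20 ± 0.20 (adjusted p = 7.39e-05), Cdkn2b of -2.34 ± 0.43 (0.00182) and Cdkn2c of -2.16 ± 0.33 (0.000691), which are 4.61-, 5.06- and 4.48-fold. The same-numbered log2 ratios of Cdkn2b were -2.21, -2.25 and -2.18, close together although its input level differed between those libraries. Cdkn1b differed by -0.81 ± 0.12 (adjusted p = 0.000595) and Cdkn2d by 0.76 ± 0.11 (adjusted p = 0.000631), each in that direction in all 3 pairs. Trp53 differed by -0.40 ± 0.14 (adjusted p = 0.0356), a call lost with DESeq2 (0.0576) with no filter (0.0901), and on leaving out any AZD library except input replicate 3 (0.0757 to 0.124). Cdkn1c differed by 0.74 ± 0.34 (adjusted p = 0.0859), and passed with the replicate block (0.0310), with all 18 libraries in a fit (0.0406) and without AZD IP replicate 1 (0.0479) or AZD input replicate 3 (0.0230).

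The markers of other cells moved in the same comparison. Of the 20 glioma-lineage markers 20 were lower in AZD IP than in AZD input, of the 25 proliferation genes 24, of 15 astrocyte markers 15 and of 16 microglia and macrophage markers 14. Of the 20 excitatory neuron markers 18 were higher and 0 lower. Their medians were -2.16, -2.05, -2.20, -2.42 and 1.18, against -0.02 over all genes tested. The values of Cdkn2a, Cdkn2b and Cdkn2c lay close to the medians of the non-neuronal lists, and that of Cdkn1b did not. What these cells contributed was not tested.

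**Figure D3:**
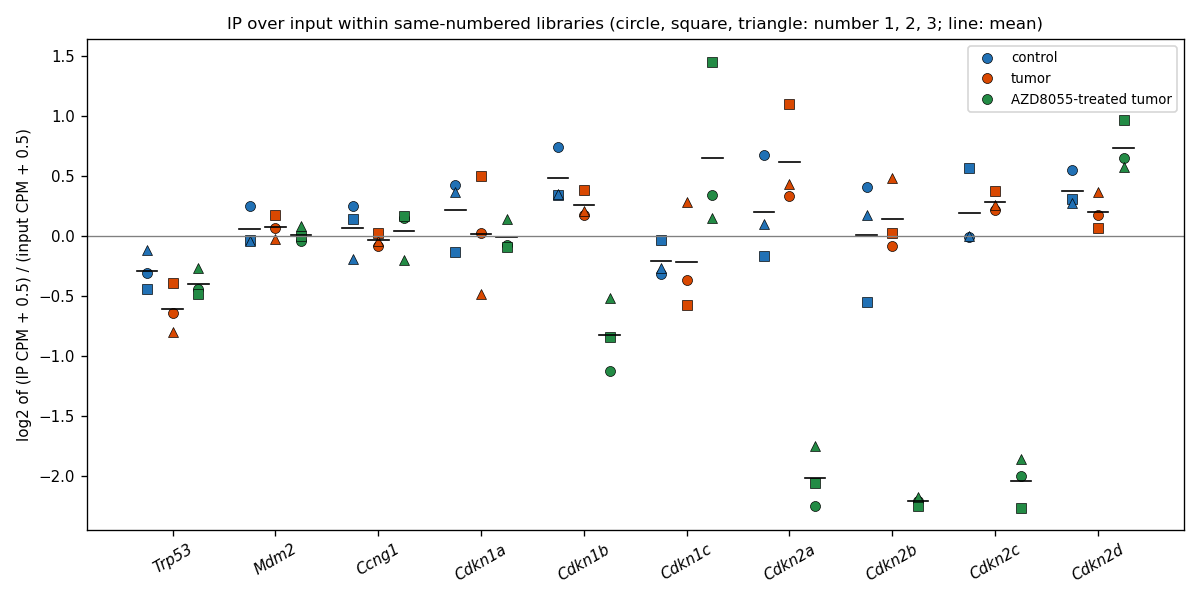
Log2 ratio of IP to input level within same-numbered libraries, after adding 0.5 CPM to both, for each gene (x axis) in control, tumor and AZD8055-treated tumor, with symbols for numbers 1 to 3 and a line at the mean. Cdkn2a, Cdkn2b and Cdkn2c lie between -2.27 and -1.75 with AZD and above -0.55 in control and tumor, and Cdkn2d is above 0 in all 9 pairs.

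A direct test compared the IP-to-input difference between conditions in a fit of all 18 libraries. Between tumor and control 0 of the 10 genes were called (0 at an unadjusted p under 0.05, 0 by DESeq2), where 0.0687% of all genes were called (0.05% higher, 0.0187% lower). The difference furthest from 0 was that of Cdkn2a, -0.62 ± 1.24, which rests on the few control counts. Between AZD and tumor 3 of the 10 were lower and 1 higher, where 33.1% of all genes were called, 12.3% higher and 20.8% lower. Cdkn2a differed by -2.79 ± 0.67 (adjusted p = 0.00466), Cdkn2c by -2.46 ± 0.42 (0.000368), Cdkn1b by -1.08 ± 0.20 (0.000692) and Cdkn2d by 0.53 ± 0.16 (0.0152). Cdkn2b at -2.36 ± 1.01 (adjusted p = 0.0824) and Cdkn1c at 0.96 ± 0.41 (0.0819) did not pass, and both did with the replicate block (6.99e-10 and 0.0368). Cdkn1c also passed without tumor IP replicate 3 (0.0462), AZD IP replicate 1 (0.0482) or AZD input replicate 3 (0.0181). Cdkn2b gave -3.73 without tumor input replicate 1, -1.23 without tumor IP replicate 1 and -2.61 without both (adjusted p = 0.00331, 0.328 and 0.00538). Cdkn2d was lost with scaling by library totals, at 0.35 (adjusted p = 0.138), and without replicate 2 of AZD (0.0873) or of tumor (0.0571) in both fractions.

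The rest of the pathway was described from lists of regulators of p53, targets of p53, and the G1/S machinery that CDK inhibitors act on. Of 22 regulators tested in tumor IP against control IP, 10 rose, 3 fell and 9 did not pass, with a median of 0.19 against 0.02 over all genes, of which 26.1% rose and 20.9% fell. The kinases that signal DNA damage to p53 were among those that rose, with Chek2 at 2.89 ± 0.21, Chek1 at 2.37 ± 0.28 and Atm at 0.83 ± 0.11. Bmi1, a Polycomb protein that represses the Cdkn2a locus, rose by 0.72 ± 0.08. Those that fell were E2f1 at -0.65 ± 0.22, Crebbp at -0.37 ± 0.13 and Kat5 at -0.26 ± 0.09. Mdm4, the partner of Mdm2 in holding p53 down, was at 60.6 ± 5.62 CPM in IP of control and 58.2 ± 3.49 in IP of tumor and did not pass. In input 7 rose, 0 fell and 15 did not pass, where 24.5% of all genes rose and 23.6% fell, with Chek1 at 2.26 ± 0.23, Chek2 at 2.30 ± 0.45 and Atm at 0.51 ± 0.15, the last lost without control input replicate 1 (0.0631) or 2 (0.0598) or tumor input replicate 2 (0.0573).

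Of 38 p53 targets tested, 16 rose in tumor IP, 5 fell and 17 did not pass (median 0.37), and in input 14 rose, 5 fell and 19 did not pass. Counted in either direction, the share of targets called was near that of all genes, 47% in IP and 48.1% in input. By direction, more targets rose than fell, where 26.1% of all genes rose and 20.9% fell in IP. In input 24.5% of all genes rose and 23.6% fell. The highest of those named were genes also expressed in dividing cells, Ckap2 at 4.97 ± 0.32 and Gtse1 at 3.55 ± 0.23, whose products act on the mitotic spindle and on p53 in G2. Trp53inp1, a cofactor of p53 in stress, rose by 1.56 ± 0.09, Phlda3, which restrains Akt, by 0.92 ± 0.11, and the death gene Bax by 0.77 ± 0.09. The receptor gene Eda2r rose by 2.85 ± 0.48. Bbc3 (Puma) at 0.57 ± 0.18 and Gadd45a at 1.03 ± 0.32 passed with adjusted p of 0.025 and 0.021. The Gadd45a call was lost without control IP replicate 2 (0.0656) or 3 (0.0793) or tumor IP replicate 1 (0.0807), and that of Bbc3 with no filter (0.0536) and without any single IP library of control or without tumor replicate 1 or 2 (0.0514 to 0.0845). Zmat3 was at 183 ± 13.2 CPM in IP of control and 149 ± 26.2 in IP of tumor, and Sesn1 at 86.9 ± 2.91 and 75.7 ± 11.9, and neither passed. In input Gtse1 rose by 4.57 ± 0.34, Ckap2 by 4.997 ± 0.38 and Trp53inp1 by 1.39 ± 0.15, and Bax differed by 0.52 ± 0.20 (adjusted p = 0.051). Bax passed without tumor replicate 3 (0.038), with DESeq2 (0.0333), RLE scaling (0.0482), library totals (0.0326), no filter (0.0476) and all 18 libraries in a fit (0.00928).

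Of 27 genes of the G1/S machinery, 15 rose in tumor IP, 3 fell and 9 did not pass (median 0.73), and in input 15 rose, 1 fell and 11 did not pass, against 26.1% of all genes higher in IP and 24.5% in input. Of the D cyclins and the kinases that INK4 proteins bind, those that rose in IP were Ccnd1 by 3.90 ± 0.16, Ccnd3 by 2.64 ± 0.17, Ccnd2 by 2.42 ± 0.16 and Cdk4 by 2.11 ± 0.18. Cdk6 did not pass, with 1.14 ± 0.454 CPM for control and 1.71 ± 0.707 for tumor. Cdk2, a target of the Cip/Kip proteins, rose by 3.91 ± 0.18. The 3 that fell were E2f1 at -0.65 ± 0.22, Ccne1 at -0.44 ± 0.14 and Cdk5 at -0.31 ± 0.09. Rb1 at 0.10 ± 0.09 and Ccng2 at -0.05 ± 0.13 did not pass. Levels of Ccnd1 in IP were 71.2 ± 14.7 CPM for control, 1047 ± 111 for tumor and 174 ± 10.9 for AZD.

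**Figure D4:**
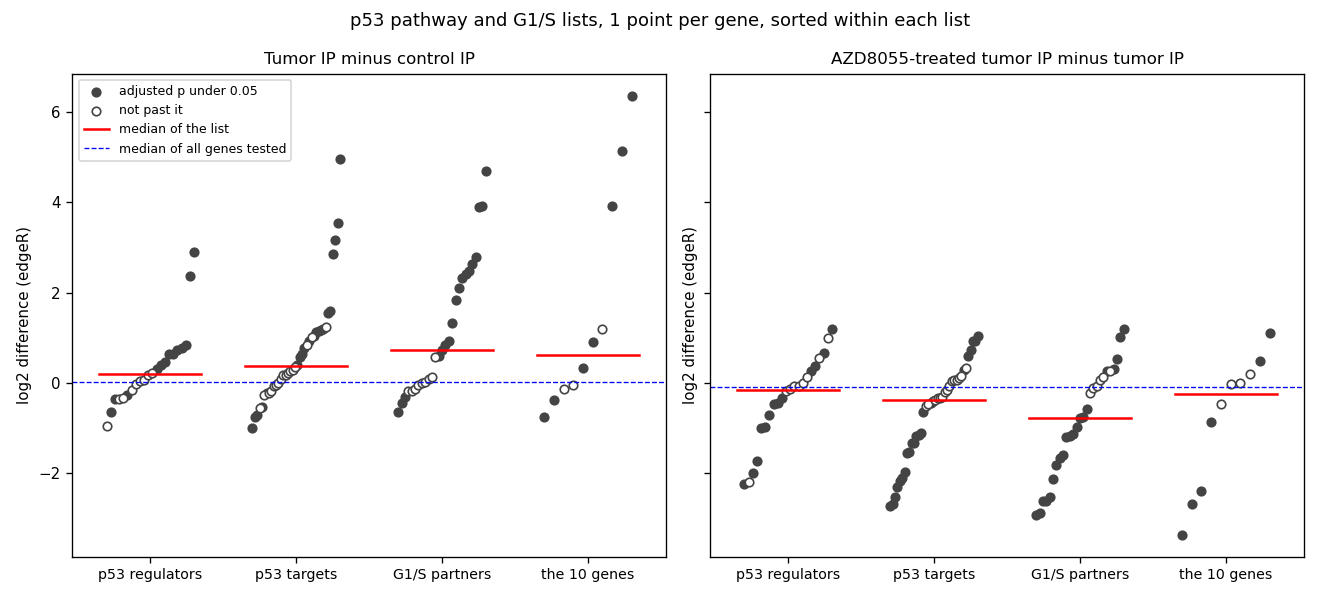
Log2 difference of every gene of the lists of p53 regulators, p53 targets and G1/S partners and of the 10 genes, sorted within each list, for tumor IP minus control IP (left) and AZD8055-treated tumor IP minus tumor IP (right), with filled points at an adjusted p under 0.05, a red line at each list's median and a dashed line at the median of all genes tested. The G1/S list has its median at 0.73 on the left and -0.78 on the right. On the left, the points and median of the 10 genes include Cdkn2a, whose value there is a description.

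In AZD IP against tumor IP, 4 regulators rose, 9 fell and 9 did not pass (median -0.16 against -0.09 over all genes, of which 25.1% rose and 33.5% fell, 58.7% in all). Hipk2, a kinase of p53, differed by -1.73 ± 0.12, Chek2 by -1.99 ± 0.20 and Bmi1 by -0.97 ± 0.08. Of the 38 targets 6 rose, 17 fell and 15 did not pass (median -0.39). Counted in either direction, the shares of regulators and targets called were near 58.7%, though more of both fell than rose. Among the targets, Abhd4 differed by -2.11 ± 0.13, Gtse1 by -2.32 ± 0.21, Trp53inp1 by -1.18 ± 0.09, Phlda3 by -1.11 ± 0.11 and Bax by -0.40 ± 0.09. Sesn1, whose product holds back mTORC1, rose by 1.03 ± 0.13. Of the 27 G1/S genes 5 rose, 16 fell and 6 did not pass (median -0.78), with Cdk2 at -2.93 ± 0.17, Ccnd1 at -2.62 ± 0.15 and Ccnd3 at -2.52 ± 0.17. In input the counts were 1 higher and 5 lower of 22 regulators, 2 and 3 of 38 targets, and 1 and 11 of 27 G1/S genes, where 7.89% of all genes were higher and 9.17% lower.

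Between AZD IP and AZD input, 9 of 38 targets were higher in IP and 15 lower (median -0.21), near the background of 29% higher and 32.5% lower over all genes. Zmat3 at 0.74 ± 0.11, Rprm at 0.74 ± 0.13 and Sesn1 at 0.64 ± 0.13 were higher, and Abhd4 at -2.21 ± 0.11, Pltp at -2.11 ± 0.27 and Trp53inp1 at -1.45 ± 0.10 lower. Of 21 regulators 4 were higher and 8 lower, with Hipk2 at -1.04 ± 0.12 and the damage kinase Atr at -1.02 ± 0.15. Of 27 G1/S genes 7 were higher and 14 lower, with the transcription factor E2f1 at 1.36 ± 0.21 and Ccnd1 at -1.81 ± 0.15, Ccnd3 at -1.75 ± 0.12 and Cdk2 at -2.36 ± 0.21. In control IP against input, 7 targets were higher and 6 lower of 38, where 36.5% of all genes were called.

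Ordered by mean level, Cdkn2a and Cdkn2b ran from tumor IP through tumor input and AZD input, whose libraries overlapped, to AZD IP and then control IP and control input, which overlapped with each other. Cdkn2c had the same order except that AZD input stood second. Cdkn1b ran from tumor IP (79.3 ± 8.42 CPM) through AZD input (79.0 ± 7.69) and tumor input (66.8 ± 12.01), which overlapped in that order, to AZD IP (44.3 ± 5.08) and control IP (43.3 ± 1.04), which overlapped too, and control input (31.2 ± 4.99). For Cdkn2d only AZD IP stood clear of its neighbour. For Mdm2 the only gap between neighbours was that between tumor input and control IP, for Ccng1 that between control input and tumor input, and for Trp53 that between AZD IP and control IP. Neighbouring groups overlapped throughout for Cdkn1a and Cdkn1c.

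Genes whose profile was most like that of each gene were found by Pearson's r of log2(CPM + 1) over the 18 libraries, among 11393 candidates with a mean of at least 5 CPM. These r values describe libraries that share a condition, a fraction and a set. For Cdkn2a they were Sema3d (0.994), Shc4 (0.988) and Ccnd1 (0.985), and for Cdkn2c Ostf1 (0.991), Nuf2 (0.990) and Prc1 (0.986). For Cdkn2b they were Rpl22 (0.988), Rasl11a (0.987) and Rps4x (0.981). Rpl22 is the gene whose product carries the tag. For Cdkn1b they were Elk4 (0.969), Laptm4a (0.966) and Sptssa (0.963), for Cdkn2d Mrps26 (0.962), and for Trp53 Spred3 (0.938) and Pelp1 (0.938). Among the 10 genes, r was 0.969 between Cdkn2a and Cdkn2c, 0.960 between Cdkn2a and Cdkn2b, and 0.946 between Cdkn2b and Cdkn2c.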

How the data were processed

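The authors deposited a table of raw read counts per gene symbol for 18 libraries, not normalized. Per the labels' protocols, extraction used a Qiagen RNeasy Mini kit and the library kit was NEBNext Ultra Directional. STAR, DESeq2 and mm10 are named in the submitters' processing notes. The sources used here give no versions, counting tool, annotation or strand setting. Without stated strand use, reads from overlapping genes may be shared: Cdkn2b lies within the span of the predicted gene Gm12610. All count columns matched a sample.

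Libraries were scaled by TMM and filtered with filterByExpr. Differences were tested with the quasi-likelihood F test of edgeR 4.0.16 in R 4.3.3, Benjamini-Hochberg adjusted over all genes tested, at 0.05. Conditions were compared in a fit of the 9 libraries of a fraction, IP and input in a fit of the 6 libraries of a condition, and the IP-to-input differences in a fit of all 18, which made 11 comparisons. Precision is limited by 3 libraries a group. The scripts were tested on simulated data. No pair of libraries differed by as little as counting noise.

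The 10 genes and the gene lists were chosen with earlier results of these data known. Named by rule were the 10 genes, a fixed selection of each list, the 3 genes of a list with the smallest adjusted p, and the 3 genes most alike to each gene. The listed genes that fell in tumor IP against control IP were named too, outside the rule. A few values that the rule allowed were left out.

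Whether replicate numbers pair the samples was checked by correlating deviations from the group means over 11863 genes. Input and IP of the same number had r of 0.32 to 0.35 (control), 0.66 to 0.89 (tumor) and 0.29 to 0.63 (AZD). The numbers were therefore taken to pair input with IP. The main tests of IP against input and of IP minus input did not use this pairing, which the replicate block does. Between conditions the same-number r ran from -0.12 to 0.41. The highest, of tumor input with AZD input, was above those of control input with IP. These r values do not settle whether numbers are linked across conditions, and numbers were not taken to pair samples there. Alternatives were DESeq2 1.42.0, RLE scaling, library totals, no filter, all 18 libraries together, the replicate block, and leaving out each replicate. Leaving out a replicate in both fractions was added after seeing the data. Promoter windows came from RefSeq on GRCm38.p6. Figures were drawn with matplotlib 3.10.9.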

Additional observations from a re-analysis of the deposited data

Results flagged for a closer look

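For 4 genes the difference between AZD and tumor itself differed between IP and input, by the contrast in the fit of all 18 libraries (edgeR quasi-likelihood F test, adjusted over all genes). Cdkn2c differed by -2.46 (adjusted p = 0.000368), Cdkn2a by -2.79 (adjusted p = 0.00466) and Cdkn1b by -1.08 (adjusted p = 0.000692), all lower in IP relative to input. Cdkn2d differed by 0.53 (adjusted p = 0.0152), higher in IP relative to input. That fit did not pair input with IP. With the replicate block Cdkn2b (-2.43, adjusted p = 6.99e-10) and Cdkn1c (0.97, adjusted p = 0.0368) were called too. The Cdkn2d call was lost with scaling by library totals (0.138) and without replicate 2 of AZD (0.0873) or of tumor (0.0571) in both fractions. AZD and tumor libraries belonged to different sets. In this contrast 12.3% of all genes were higher and 20.8% lower. Of the 20 glioma-lineage markers 19 were lower, of 15 astrocyte markers 15 and of 16 microglia and macrophage markers 14, with 0 higher. Their medians were -1.83, -2.17 and -2.17, against -0.04 over all genes. Of the 20 excitatory neuron markers 11 were higher and 0 lower. What the cells of these lists contributed was not tested.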

How the results depend on the processing

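Over 112 values of single genes in a comparison, DESeq2 kept direction and call in 107, RLE scaling in 111, library totals in 106 and no filter in 107. The fit of all 18 libraries, which is no alternative for IP minus input, gained 5 calls and lost 0. For tumor IP against input the count of the 10 genes called was 0, against 1 with DESeq2, 1 with all 18 libraries, 4 with the replicate block and 0 to 1 on leaving out a replicate. The block is the pairing of input with IP; over the 112 values it gained 13 calls and lost 1. Between conditions, where numbers were not taken to pair samples, the block gained Cdkn1a in tumor against control IP (0.00837) and AZD against control input (0.0132), Ccng1 in both input comparisons with control (0.0377, 0.0271) and Bax in tumor input (0.00818), and lost Mdm2 in tumor input (0.0675). Over all genes, tumor IP against input had 776 calls, against 1728 with DESeq2, 2225 with all 18 libraries and 5433 with the block. For IP minus input, all genes called went from 11 to 40 with DESeq2, 67 with the block and 17 with library totals (tumor against control), and from 5296 to 8025 with the block (AZD against tumor).

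On leaving out a replicate, the count of the 10 genes called ran from 3 to 6 for AZD against control in IP (3 without control IP replicate 2). Trp53 in tumor against control IP was 0.054 with library totals and -0.11 to 0.078 on leaving out a replicate. The ranges for AZD against tumor were -0.85 to 0.27 for Cdkn1a in IP and -0.76 to 0.072 for Cdkn2a in input. Cdkn2a in IP minus input, tumor against control, ran from -1.81 to 2.25, and was 1.05 without control replicate 1 in both fractions; its control counts are few. The cause was not tested. With library totals the median over all genes shifted by -0.28 (AZD IP against input), -0.18 (IP minus input, AZD against tumor) and -0.13 (AZD against tumor in IP). Depth limits Cdkn2a in control, with 7 counts in input and 27 in IP over 3 libraries each.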
